A study of Mus musculus with 32 samples.

Results

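Serpin transcripts were measured in mouse livers that lack proteins of mitochondrial division, of fusion or of both. All rows of the deposited table whose gene symbol starts with Serpin were taken, which gave 36 of 21880 rows, 34 of them genes and 2 pseudogenes (Serpina4-ps1 and Serpinb1-ps1). The study asked how liver changes when mitochondrial division, mitochondrial fusion or both are lost. L-Dnm1l–KO mice lack Dnm1l, the dynamin-like enzyme that divides mitochondria, DKO mice lack Mfn1 and Mfn2, the mitofusins that join their outer membranes, and TKO mice lack all of these genes. The floxed mice were on a C57BL/6/129 background and were crossed with C57BL/6J mice that carry Cre under the albumin promoter, so the deletion was aimed at hepatocytes. Livers were taken at 2 months (2M) and 6 months (6M), with 4 libraries in each of the 8 groups, 32 together, and no sex is given for these libraries. Each knockout was set against the WT libraries of the same age, which are labelled Drp1_WT, after another name of Dnm1l, also where the knockout is a TKO or DKO, so the comparisons of 1 age share their WT libraries. Nothing in the labels says that the libraries are from separate mice, and the P values measure the spread between these libraries.

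Serpins are a family of proteins that mostly inhibit serine proteases. The protease cuts an exposed loop of the serpin, the serpin snaps into another shape, and the protease is trapped on it, so that each molecule works only once. Hepatocytes secrete many of them into plasma, where they restrain neutrophil elastase, clotting enzymes, plasmin and the first enzymes of complement. Some members inhibit nothing and carry hormones or help fold collagen instead, and the members of clade b mostly stay inside cells.

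Of the members, 19 lie within chr12:103614786-104414329 (GRCm38), all from clade a, and the remaining clade a row, Serpina7, lies on chromosome X. The 5 alpha-1 antitrypsin copies Serpina1a to Serpina1e lie in this block on the minus strand. Their coding sequences of 1239 bp are 96.3% to 98.5% identical in pairs and differ at 86 positions. The 60 coding bases with the most differences are printed here because they tell the copies apart. They run from base 1101 to base 1160 of each coding sequence and code for the reactive centre loop, the stretch that meets the protease. Capitals mark the 18 positions at which the copies are not all the same, on the minus strand of GRCm38 (Serpina1a at chr12:103853757-103853816, Serpina1b at chr12:103728324-103728383, Serpina1c at chr12:103895094-103895153, Serpina1d at chr12:103763762-103763821, Serpina1e at chr12:103947100-103947159), from GENCODE M21 transcripts.
Serpina1a: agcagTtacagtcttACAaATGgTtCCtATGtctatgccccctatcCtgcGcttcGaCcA
Serpina1b: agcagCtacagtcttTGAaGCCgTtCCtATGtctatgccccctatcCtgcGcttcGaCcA
Serpina1c: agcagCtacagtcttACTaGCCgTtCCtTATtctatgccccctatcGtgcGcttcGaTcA
Serpina1d: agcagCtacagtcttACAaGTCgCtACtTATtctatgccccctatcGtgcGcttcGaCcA
Serpina1e: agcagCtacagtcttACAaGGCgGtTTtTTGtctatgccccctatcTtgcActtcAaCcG

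The DNA just before the start sites of these copies is nearly the same, and it is shown to describe how alike the copies are. The 76 bases below are RefSeq promoter sequence on the minus strand of GRCm38.p6 (Serpina1a at chr12:103863625-103863700, Serpina1b at chr12:103738200-103738275, Serpina1c at chr12:103904962-103905037, Serpina1d at chr12:103773634-103773709, Serpina1e at chr12:103956960-103957035), and 66 of the positions are the same in all 5 copies. Capitals mark GTTAAT, the letters of a recognition half-site of HNF1, a hepatocyte transcription factor, which was searched on both strands as the only motif. It begins 21, 26, 27, 16 and 78 bases before the start sites of Serpina1a, Serpina1b, Serpina1c, Serpina1d and Serpina1e.
Serpina1a: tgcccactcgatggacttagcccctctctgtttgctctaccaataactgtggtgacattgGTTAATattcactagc
Serpina1b: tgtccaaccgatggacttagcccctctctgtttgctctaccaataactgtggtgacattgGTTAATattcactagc
Serpina1c: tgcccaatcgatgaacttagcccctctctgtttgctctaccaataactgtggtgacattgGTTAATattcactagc
Serpina1d: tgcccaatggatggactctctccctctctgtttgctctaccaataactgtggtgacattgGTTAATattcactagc
Serpina1e: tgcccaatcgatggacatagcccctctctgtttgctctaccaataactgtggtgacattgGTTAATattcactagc

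Of the members, 26 have a promoter window in the RefSeq table, of 250 bases before to 50 bases after the start, and 8 of these hold the motif, which are Serpina1a to Serpina1e, Serpina3c, Serpina7 and Serpinb8. It is found in 8.24% of the 27025 genes of that table, and in 7.10% of its 32851 windows. A match of letters is a description, and binding was not measured.

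The likeness of the copies also limits how reads can be told apart. Of all 75-base windows in the transcripts of Serpina1c, 64.6% occur unchanged in another serpin, and the share is 44.5% for Serpina1a, 34.2% for Serpina1d, 19.7% for Serpina1e and 18.0% for Serpina1b. It is 9.65% for Serpina3m, 7.36% for Serpina3k and 1.46% for Serpina3n, and 0 for the other members whose mean normalized count reached 10. Reads were 75 bases long and single-end, so the values of single Serpina1 copies are uncertain where reads were dropped or split between them. Serpina3m is annotated from the same first base as Serpina3k and spans it on the same strand, and the annotation of Serpina1b spans Serpina1d in the same way, so these neighbours are uncertain as well.

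The level of each member is its mean normalized count, the authors' mean over the 32 libraries after scaling by DESeq2. Serpina3k had the highest mean, 685, and ranked 171 of all genes. Serpinb6a (553), Serpina1e (550), Serpina1b (303), Serpina1c (189), Serpina1d (179), Serpinc1 (159) and Serpina1a (100.4) followed, and these 8 were the only members at 100 or more. Per kilobase of exon the order changed, and the means per kilobase were 340 for Serpina1e, 333 for Serpina3k, 139 for Serpina1c, 129 for Serpina1d, 125 for Serpina1b, 102 for Serpinb6a and 54.8 for Serpina1a. The Serpina1 copies held 43.3% and Serpina3k 22.4% of the summed means of the serpin genes, and these genes together held 0.339% of the sum over the table.

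A further 8 members had means from 18.7 to 54.6, 6 had means from 1.46 to 8.35, and 14 were under 1. The last group holds Serpinh1 (0.463), the collagen chaperone HSP47 of matrix-forming cells, and among others Serpina1f, Serpina3g, Serpina9, Serpinb1a, Serpinb9, Serpini1 and Serpinb1-ps1. Their log2 fold changes had standard errors of 2.00 to 5.95 and none had an adjusted P value, so no difference was detectable for them at this depth. A further 32 serpin genes of GENCODE M21 have no row in the table. Values of single libraries were not analysed here, so the depth per library is unknown, and errors are the standard errors that the authors deposited. The strand setting of the authors' counting is not given in the sources used here. If reads were counted on the strand opposite to the transcript, each level and fold change printed here would be that of opposite-strand reads at the locus and not of the serpin transcript, and this was not tested.

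**Figure D1:**
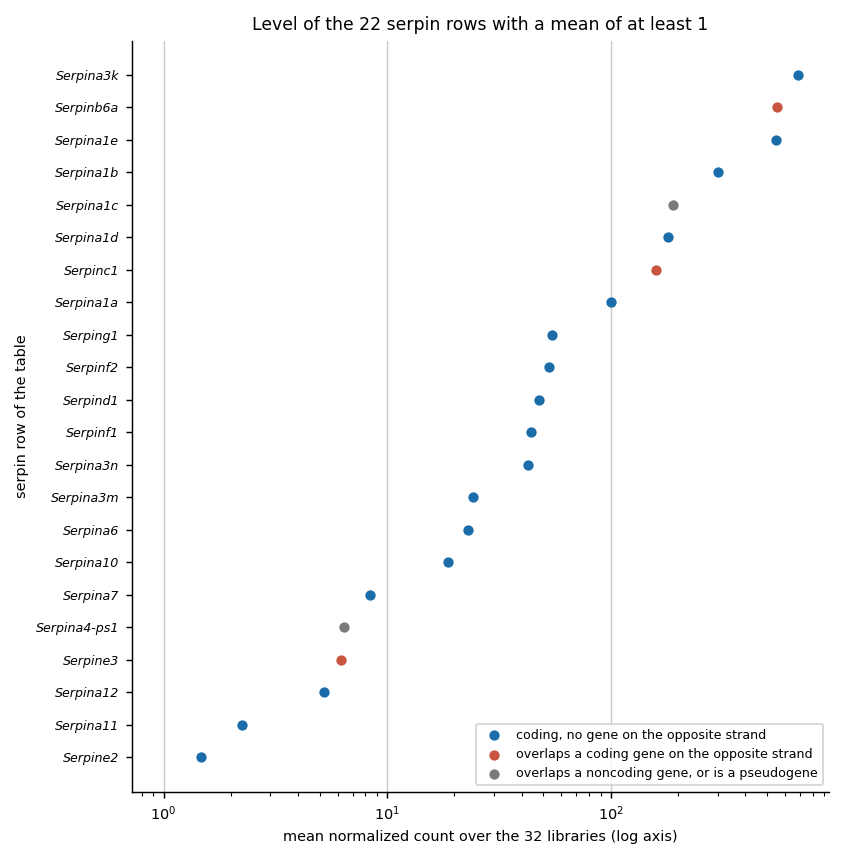
Mean normalized count over the 32 libraries of the 22 serpin rows whose mean reached 1, on a log axis, with vertical lines at 1, 10 and 100 and colours for what the annotation has on the opposite strand. The means run from 1.46 for Serpine2 to 685 for Serpina3k, and 8 rows reach 100.

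The deleted genes check the labels in part. Mfn2 was called lower in TKO livers at 2M (−2.05 ± 0.53) and in DKO livers at 2M and 6M (−3.43 ± 0.66 and −1.59 ± 0.52), and Mfn1 in DKO livers at 6M (−3.74 ± 0.98). Dnm1l, with a mean of 8.70, was at −0.42 ± 0.52 and −0.44 ± 0.47 in L-Dnm1l–KO and at 0.58 ± 0.48 and −0.37 ± 0.47 in TKO livers at 2M and 6M, and it was not called lower in any comparison, so its level does not separate the libraries labelled L-Dnm1l–KO and TKO from WT.

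Across the family, the values of serpin rows were mostly lower than in WT in L-Dnm1l–KO mice at 2M and in DKO mice at both ages. No member passed the test in TKO mice or in L-Dnm1l–KO mice at 6M. Which strand was counted is not given, so these values may not be those of the serpin transcripts. A member was called different at an adjusted P value under 0.05, by the authors' DESeq2 Wald test adjusted by Benjamini-Hochberg across the table, together with a log2 fold change of more than 1 in either direction. In all, 19 members were called in at least 1 comparison. In L-Dnm1l–KO mice at 2M, 9 of the 19 members with an adjusted P value were called lower and 1 higher, where 2.49% of all genes tested were called lower and 1.68% higher. In DKO mice at 2M, 9 of 20 members were called lower and 1 higher, against 3.48% and 2.39% of genes. In DKO mice at 6M, 15 of 20 were called lower and 0 higher, with 8.62% of genes called lower. The share of genes called higher there was not computed, so the 0 has no background beside it. At 2M, TKO livers had 0 calls among 20 members, with 1 member at an unadjusted P value under 0.05, and 0.242% of genes were called in either direction. At 6M, L-Dnm1l–KO livers had 0 calls among 17 members, with 2 at an unadjusted P value under 0.05, and 2.12% of genes were called. TKO livers at 6M had 0 calls among 16 members, with 1 at an unadjusted P value under 0.05, and 0.557% of genes were called.

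The median log2 fold change of the 22 members with a mean of at least 1 was −1.20 in L-Dnm1l–KO, 0.05 in TKO and −1.10 in DKO livers at 2M, and −0.39, −0.08 and −1.21 at 6M. Over all 12419 genes with such a mean the medians were −0.09, 0.02, 0.00, −0.03, −0.03 and −0.32 in the same order. At 6M in DKO livers all 22 members were below 0, as were 7565 of the 12419 genes.

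What lies on the opposite strand of a gene moved with these values. The library kit keeps the strand of the RNA. Of the 100 genes with the highest means, 92% face a coding gene on the other strand. Where the mean reached 10, coding genes that face no annotated gene had medians of −0.46 in L-Dnm1l–KO livers at 2M, −0.23 in DKO livers at 2M and −0.85 in DKO livers at 6M, and genes that face a coding gene had 0.12, 0.11 and 0.30. Of the members, 30 are in the former class and 3 (Serpinb6a, Serpinc1 and Serpine3) in the latter. The 13 members of the former class with a mean of at least 10 had medians of −1.29, −1.12 and −1.36 in these comparisons. Within that class, 4.58%, 4.53% and 14.9% of the genes tested were called lower. With log2 fold changes centred separately by opposite-strand class, 6 members were called in L-Dnm1l–KO livers at 2M, 7 in DKO livers at 2M and 5 in DKO livers at 6M, in place of 10, 10 and 15. The share of all genes called after this centring was not computed, so these counts have no background beside them. The part of strand in the serpin values was not tested.

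**Figure D2:**
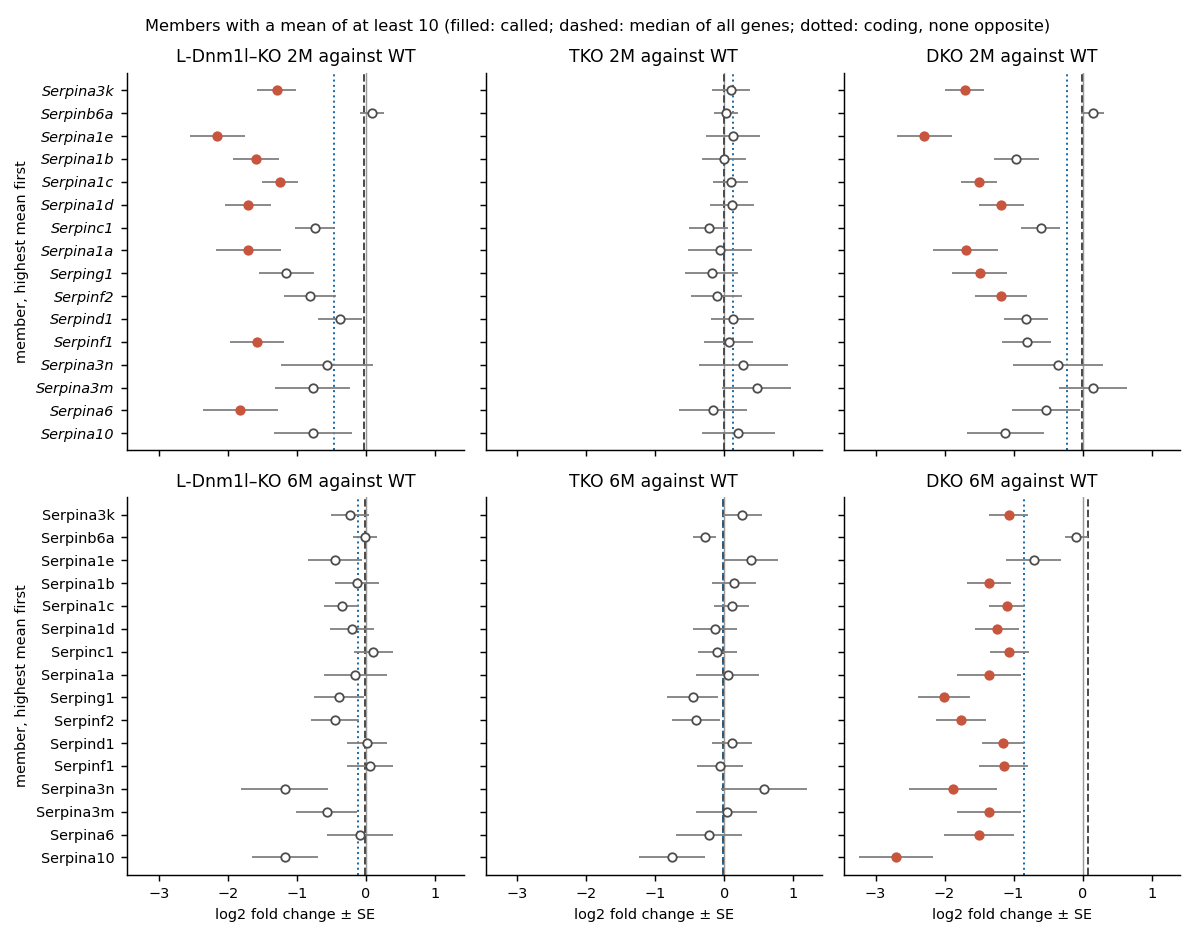
Log2 fold change against WT of the same age with its standard error for the 16 members with a mean of at least 10, in the 6 comparisons, with filled points for called members, a dashed line at the median of all genes with such a mean and a dotted line at that of coding genes that face no gene. Nearly all points lie left of 0 in L-Dnm1l–KO mice at 2M and in DKO mice, 15, 14 and 16 of the 16 in the order 2M, 2M and 6M, and Serpinb6a stays near 0 throughout.

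Serpina1a, Serpina1c, Serpina1d and Serpina3k were the 4 members called lower in each of the 3 comparisons with serpin calls, and none of them kept all 3 calls with opposite-strand classes centred separately. Alpha-1 antitrypsin is the main plasma inhibitor of neutrophil elastase, and mice have several copies of the single human gene. In L-Dnm1l–KO livers at 2M all 5 copies fell, and the log2 fold changes against WT were −2.16 ± 0.40 for Serpina1e, −1.71 ± 0.33 for Serpina1d, −1.70 ± 0.47 for Serpina1a, −1.59 ± 0.33 for Serpina1b and −1.25 ± 0.27 for Serpina1c (± SE, n = 4 libraries per group here and throughout). These are 22.4%, 30.7%, 30.7%, 33.2% and 42.2% of the WT level, with adjusted P values of 1.5e-05, 5.59e-05, 0.0112, 0.000153 and 0.000272. The intervals of the copies overlap, and whether one copy fell more than another was not tested. With classes centred separately the calls of Serpina1a (−1.34) and Serpina1c (−0.88) were lost, and that of Serpina1c was also lost at a threshold of 1.5.

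In TKO livers at 2M the same copies lay between −0.06 and 0.12, and at 6M between −0.13 and 0.39, and none was called. DKO livers at 2M had Serpina1e at −2.29 ± 0.40 (20.4% of WT, adjusted P = 8.64e-07), Serpina1a at −1.70 ± 0.47, Serpina1c at −1.51 ± 0.26 and Serpina1d at −1.18 ± 0.33, all called lower. Serpina1b, at −0.96 ± 0.32 with an adjusted P value of 0.0376, missed the fold threshold. The call of Serpina1d was lost at a threshold of 1.5 and with classes centred separately (−0.95).

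At 6M the copies in L-Dnm1l–KO livers lay between −0.45 and −0.12, with adjusted P values from 0.601 to 0.947. In DKO livers at 6M Serpina1b was at −1.36 ± 0.32, Serpina1a at −1.35 ± 0.46, Serpina1d at −1.24 ± 0.32 and Serpina1c at −1.10 ± 0.26, all called lower. Serpina1e, the copy with the highest mean, was at −0.71 ± 0.40 and was not called (adjusted P = 0.208). These 4 calls were lost when log2 fold changes were centred separately by opposite-strand class, which left values of −0.73, −0.73, −0.61 and −0.47. All 4 were also lost at a threshold of 1.5, and that of Serpina1a with adjustment over all genes.

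The Serpina3 cluster holds mouse relatives of human alpha-1 antichymotrypsin, an acute phase inhibitor of chymotrypsin-like proteases. Serpina3k, the serpin with the highest mean, fell to 40.8% of WT in L-Dnm1l–KO livers at 2M (−1.29 ± 0.28, adjusted P = 0.000436), to 30.6% in DKO livers at 2M (−1.71 ± 0.28, adjusted P = 1.97e-07) and to 47.6% in DKO livers at 6M (−1.07 ± 0.28, adjusted P = 0.00385). It was at 0.10 ± 0.28 and 0.26 ± 0.28 in TKO livers at 2M and 6M, and at −0.23 ± 0.28 in L-Dnm1l–KO livers at 6M. Serpina3n, the acute phase member most used as a marker of inflammation in mice, was called lower in DKO livers at 6M, at 27.2% of WT (−1.88 ± 0.64, adjusted P = 0.0293). Its values in the other comparisons, from −1.17 ± 0.63 in L-Dnm1l–KO livers at 6M to 0.57 ± 0.62 in TKO livers at 6M, did not pass, and its standard errors were the widest of the members with a mean of at least 10. Serpina3m was called in that comparison as well (−1.36 ± 0.46, adjusted P = 0.0285), and it was at −0.77 ± 0.54 in L-Dnm1l–KO and 0.15 ± 0.49 in DKO livers at 2M. With classes centred separately, Serpina3k lost its calls in L-Dnm1l–KO livers at 2M (−0.93) and DKO livers at 6M (−0.44), and Serpina3n (−1.25) and Serpina3m (−0.73) lost theirs. At a threshold of 1.5, Serpina3k kept the call in DKO livers at 2M only and Serpina3m kept none, and the calls of Serpina3n and Serpina3m were lost with adjustment over all genes.

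Among the hormone carriers, Serpina6, the corticosteroid-binding globulin of plasma, fell to 28.4% of WT in L-Dnm1l–KO livers at 2M (−1.82 ± 0.55, adjusted P = 0.0231) and to 35.4% in DKO livers at 6M (−1.50 ± 0.50, adjusted P = 0.0265). It was at −0.53 ± 0.50 in DKO livers at 2M and at −0.08 ± 0.47 in L-Dnm1l–KO livers at 6M. Both Serpina6 calls were lost with adjustment over all genes and with classes centred separately (−1.46 and −0.87), and the call in DKO livers at 6M, just under 1.5 in size, also at that threshold. Serpina7, the thyroxine-binding globulin, had a mean of only 8.35 and was at 1.51 ± 0.69 in DKO livers at 2M (adjusted P = 0.170) and at −3.21 ± 0.77 at 6M, 10.8% of WT (adjusted P = 0.00142). L-Dnm1l–KO livers had it at −2.23 ± 0.98 at 2M and −0.92 ± 0.63 at 6M, neither called.

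Serpina10 is the protein Z–dependent inhibitor of clotting factor X. It fell to 15.3% of WT in DKO livers at 6M (−2.71 ± 0.53, adjusted P = 6.27e-05), the lowest value of any member with a mean of at least 10 in any comparison, and was at −1.12 ± 0.56 at 2M (adjusted P = 0.229). L-Dnm1l–KO and TKO livers at 6M had it at −1.17 ± 0.48 (adjusted P = 0.190) and −0.76 ± 0.48 (adjusted P = 0.684). Serpina12, the adipokine vaspin, with a mean of 5.21, was called lower in DKO livers at 2M only (−2.65 ± 0.84, adjusted P = 0.0244), a call lost with adjustment over all genes and with classes centred separately. Serpina11, with a mean of 2.25, was between −2.35 and −0.24 and had no adjusted P value.

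The plasma inhibitors of clotting, fibrinolysis and complement were lower in DKO livers at 6M without exception. Antithrombin, Serpinc1, which inhibits thrombin and factor X, was at −1.06 ± 0.28 (47.8% of WT, adjusted P = 0.00463), and heparin cofactor II, Serpind1, a second thrombin inhibitor, at −1.15 ± 0.31 (adjusted P = 0.00468). Serpinf2, alpha-2 antiplasmin, which blocks plasmin, was at −1.76 ± 0.37 (29.5% of WT, adjusted P = 0.000186). C1 inhibitor, Serping1, which controls complement C1 and plasma kallikrein, was at −2.01 ± 0.38 (24.8% of WT, adjusted P = 3.35e-05). The calls of Serpinc1, Serping1 and Serpina10 held when classes were centred separately, as did those of Serpinf2 and Serpina7, and that of Serpind1 was lost (−0.53). With coding genes that face no gene centred on their own median, that of Serpinf2 was lost as well (−0.92). At a threshold of 1.5 the calls of Serpinc1 and Serpind1 were lost.

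At 2M in DKO livers Serping1 (−1.49 ± 0.40, adjusted P = 0.0046) and Serpinf2 (−1.19 ± 0.38, adjusted P = 0.0237) were called lower, and Serpind1 and Serpinc1 were at −0.82 ± 0.32 and −0.61 ± 0.29 and did not pass (adjusted P = 0.0846 and 0.193). None of these 4 passed in L-Dnm1l–KO livers at 2M, where Serping1 came closest (−1.15 ± 0.40, adjusted P = 0.0598) and was called when the adjustment ran over genes whose mean reached 10. In DKO livers at 2M the call of Serpinf2 was lost at a threshold of 1.5, with adjustment over all genes and with classes centred separately (−0.96), and that of Serping1 at a threshold of 1.5. Serpinf1, pigment epithelium–derived factor, a secreted serpin that inhibits new vessel growth and no protease, was called lower in L-Dnm1l–KO livers at 2M (−1.58 ± 0.39, 33.5% of WT, adjusted P = 0.0031). It was also called lower in DKO livers at 6M (−1.14 ± 0.35, adjusted P = 0.0147), and stood at −0.81 ± 0.36 in DKO livers at 2M. The call at 6M was lost at a threshold of 1.5 and with classes centred separately (−0.52), and the call in L-Dnm1l–KO livers at 2M with coding genes that face no gene centred on their own median (−1.12). In L-Dnm1l–KO and TKO livers at 6M these 5 inhibitors lay between −0.46 and 0.12.

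The proteases that these serpins act on were read from a list of 22 genes, of which 19 are in the table and 14 have a mean of at least 10. In DKO livers at 6M, 10 of these 14 were called lower and 0 higher, with a list median of −1.50. There 8.62% of all genes tested were called lower, and the share called higher was not computed. The median of coding genes that face no gene was −0.85. Plg, the precursor of plasmin, was at −1.69 ± 0.32, F2, which encodes prothrombin, at −1.32 ± 0.31, and the C1 protease genes C1ra and C1s1 at −1.81 ± 0.44 and −1.78 ± 0.45. Plg (−1.24 ± 0.33) and Klkb1, plasma prekallikrein (−2.25 ± 0.71), were called lower in L-Dnm1l–KO livers at 2M, and Klkb1 in DKO livers at 2M (−2.20 ± 0.68). In the other comparisons 0 were called. Masp2 stayed between 0.01 and 0.26 in the 3 comparisons with serpin calls. Elane, Ctsg and Gzmb were not found in the table, and Prtn3, a neutrophil protease, had a mean of 0.0565 and no adjusted P value.

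Serpinb6a, an inhibitor that stays inside cells, stood apart from the plasma serpins. Its mean of 553 is among the highest of the family, its standard error of 0.17 was the smallest, and its log2 fold changes were 0.09, 0.03 and 0.15 in L-Dnm1l–KO, TKO and DKO livers at 2M and −0.01, −0.28 and −0.09 at 6M (adjusted P of 0.668 or more). Its exons overlap those of 3 genes on the opposite strand, Nqo2, Ripk1 and 1110046J04Rik, whose means of 12.3, 8.61 and 4.51 are far below its own. Serpinb6a is thus in the class that faces a coding gene. Where the mean reached 10, that class had medians of 0.12 and 0.11 in L-Dnm1l–KO and DKO livers at 2M. At 6M its median in DKO livers was 0.30, and the part of this class in the Serpinb6a values was not tested. The other 4 clade b genes and the clade b pseudogene had means under 1.

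Serpine3, a member of clade e, was the only member called higher. It was at 2.63 ± 0.73 in L-Dnm1l–KO livers (adjusted P = 0.0105), at 2.46 ± 0.74 in TKO livers (adjusted P = 0.186) and at 2.38 ± 0.73 in DKO livers (adjusted P = 0.0171) at 2M, 3 comparisons that share their WT libraries. At 6M it was at −0.57 ± 0.56, −0.26 ± 0.55 and −0.11 ± 0.55. Its mean was 6.19. Ints6, which overlaps it by 348 bp on the opposite strand and has a mean of 3.14, was at −0.26 ± 1.05, 1.89 ± 0.88 and 1.06 ± 0.90 at 2M. Serpine2, protease nexin 1, with a mean of 1.46, had standard errors of 1.00 or more and no adjusted P value.

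The pseudogene Serpina4-ps1, with a mean of 6.40, was at −4.41 ± 1.27 in L-Dnm1l–KO (adjusted P = 0.0146) and −6.21 ± 1.27 in DKO livers (adjusted P = 6.06e-05) at 2M, and at −0.45 ± 0.80 in TKO livers. The call in L-Dnm1l–KO livers was lost with adjustment over all genes. At 6M it was at −3.33 ± 1.00 in L-Dnm1l–KO livers, with an unadjusted P value of 0.000865 and no adjusted one, and at 131% and 50.1% of WT in TKO and DKO livers, where it was not called. At so low a mean the fitted sizes are estimates and not bounds. Serpinb1-ps1 had a mean of 0.121 and no adjusted P value.

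**Figure D3:**
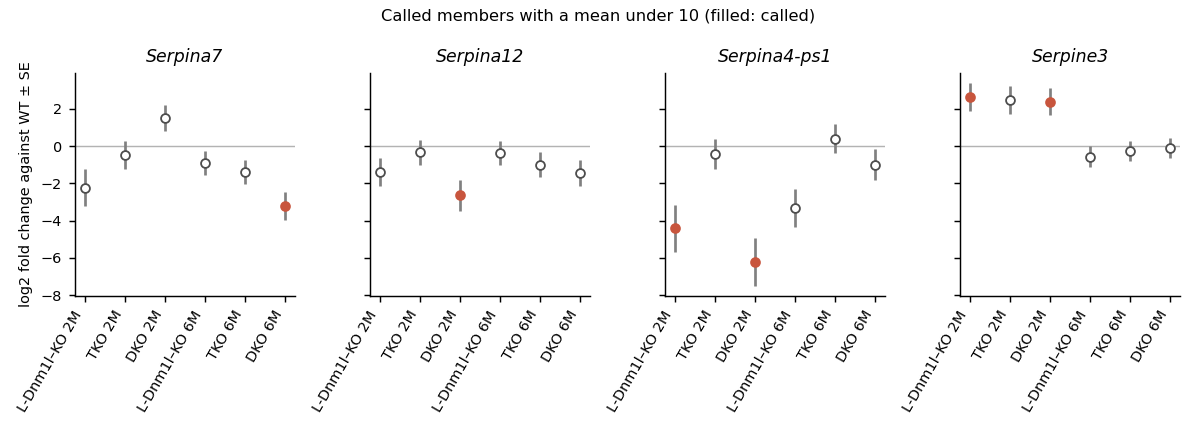
Log2 fold change against WT of the same age with its standard error in the 6 comparisons for the called members with a mean under 10, Serpina7, Serpina12, Serpina4-ps1 and Serpine3, with filled points for calls. Serpine3 lies above 2 in the 3 comparisons at 2M and near 0 at 6M, and Serpina7 lies above 0 in DKO livers at 2M and below −3 at 6M.

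For members with an abundant gene on the opposite strand, that gene was read in the same comparisons. B430119L08Rik, annotated as an antisense RNA at chr12:103895897-103898784, overlaps the exons of Serpina1c by 429 bp. Its mean of 29587 is the third highest in the table and 157 times that of Serpina1c. Of its 1920 windows of 75 bases, 262 are the reverse complement of Serpina1c transcript sequence, 144 of Serpina1a and 31 of Serpina1d, and 0 of Serpina1b or Serpina1e. Its log2 fold changes were −0.21 ± 0.22, 0.21 ± 0.22 and −0.79 ± 0.22 in L-Dnm1l–KO, TKO and DKO livers at 2M and −0.31 ± 0.22, −0.00 ± 0.22 and 0.16 ± 0.22 at 6M, and the third passed an adjusted P value of 0.05 (0.00574). Serpina1c was at −1.25, 0.09, −1.51, −0.35, 0.11 and −1.10 in the same order. From which strand the reads of either row came was not tested.

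Zbtb37 overlaps Serpinc1 by 2942 bp, with a mean of 1225 against 159. It lay between −0.25 and 0.14 in the 6 comparisons and none of these values passed, while Serpinc1 was at −0.74, −0.23, −0.61, 0.11, −0.10 and −1.06. In L-Dnm1l–KO livers at 2M and in DKO livers at both ages, the values of Serpina1c and Serpinc1 lay below those of their opposite-strand genes. The difference within these pairs was not tested. Whether the values of Serpina1c and Serpinc1 hold all of the reads of these genes was not tested either.

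**Figure D4:**
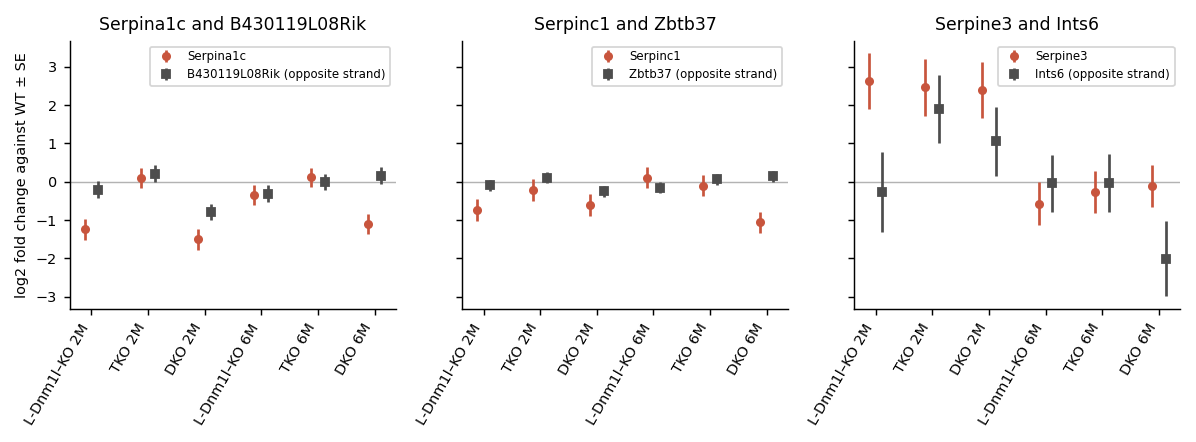
Log2 fold change against WT of the same age with its standard error for Serpina1c, Serpinc1 and Serpine3 (circles) and for the gene on their opposite strand (squares) in the 6 comparisons. Serpina1c is at −1.25 in L-Dnm1l–KO livers at 2M and −1.10 in DKO livers at 6M, where B430119L08Rik is at −0.21 and 0.16.

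The effect of a knockout was also compared between ages, which share no libraries, by a Wald test on the gap between log2 fold changes, run over the 4423 genes whose mean reached 10. For L-Dnm1l–KO mice, 13 of 16 members were less negative at 6M than at 2M, with a median difference of 0.87 against 0.35 for coding genes that face no gene, and 0 members passed (9 at an unadjusted P value under 0.05), with 1.29% of genes called in either direction. The largest in this comparison were Serpina6 (1.73 ± 0.72, adjusted P = 0.236), Serpina1e (1.71 ± 0.56, 0.0967), Serpinf1 (1.64 ± 0.51, 0.0775), Serpina1a (1.55 ± 0.66, 0.243), Serpina1d (from −1.71 to −0.21, SE 0.46, 0.0680) and Serpina1b (1.47 ± 0.46, 0.0770). Their 95% intervals lie above 0, from 0.60 to 2.40 for Serpina1d, and each adjusted P value misses 0.05, so a loss of the 2M difference at 6M is not shown for any single member. For TKO mice 0 of the 16 members passed (0 also at an unadjusted P value under 0.05), and 0% of genes were called. Serpine3, whose mean is under 10, differed by −3.20 ± 0.92, −2.72 ± 0.92 and −2.50 ± 0.91 in L-Dnm1l–KO, TKO and DKO mice. By the same Wald test the unadjusted P values were 0.000492, 0.00295 and 0.00599, and none passed over genes whose mean reached 1.

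For DKO mice Serpina1e was the only member that passed, at 1.58 ± 0.56 (adjusted P = 0.0461), with −2.29 at 2M and −0.71 at 6M, and 7.23% of genes were called in that direction. Over the genes whose mean reached 1 it no longer passed (adjusted P = 0.106), and there Serpina7 passed (−4.72 ± 1.03, adjusted P = 0.00121) and so did Serpina4-ps1 (5.21 ± 1.51, adjusted P = 0.0288), both with means under 10. Of the 16 members, 12 were more negative at 6M, with a median of −0.37 against −0.53 for coding genes that face no gene.

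The genotypes were compared within an age by the same test, which is conservative here because the WT error is shared. At 2M, TKO livers differed from L-Dnm1l–KO livers in 5 members, all less negative in TKO, with 0.927% of genes called in that direction. They were Serpina1e (2.28 ± 0.56, adjusted P = 0.00579), Serpina1d (1.82 ± 0.46, 0.00842), Serpina1b (1.59 ± 0.46, 0.0327), Serpina3k (1.39 ± 0.40, 0.0294) and Serpina1c (1.34 ± 0.37, 0.0219). The call was kept by Serpina1e and Serpina1d when the adjustment ran over genes whose mean reached 1 or over all genes, and 0 members passed with classes centred separately, where Serpina1e came closest (1.83 ± 0.56, adjusted P = 0.0558). DKO and L-Dnm1l–KO livers at 2M gave 0 members that passed, with 1.81% of genes called in either direction, and differences from −0.41 to 0.63 for Serpina3k and the Serpina1 copies. None of the 16 members had an unadjusted P value under 0.05, and the 95% interval for Serpina1e ran from −1.24 to 0.97. Serpina7, whose mean is under 10, differed by 3.75 ± 1.20 (unadjusted P = 0.00173) and did not pass over genes whose mean reached 1. At 6M, 0 members passed between TKO or DKO and L-Dnm1l–KO livers (1 and 11 at an unadjusted P value under 0.05), with 0.271% and 0.904% of genes called in either direction, and all 16 were more negative in DKO, with a median difference of −1.17 against −0.71 for coding genes that face no gene.

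**Figure D5:**
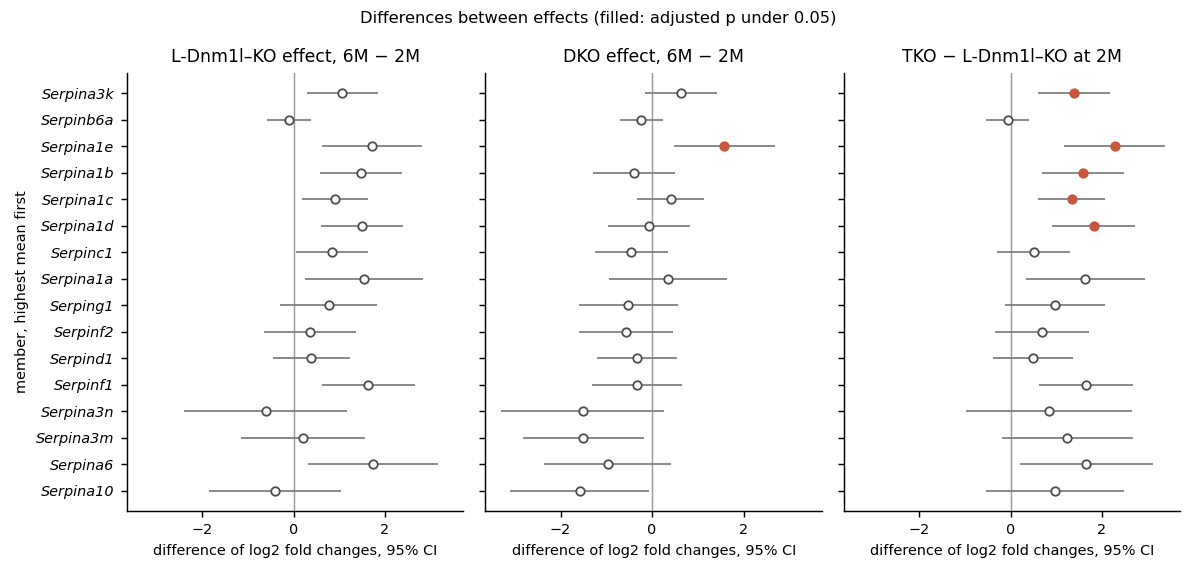
Difference of log2 fold changes with its 95% confidence interval for the 16 members with a mean of at least 10, for L-Dnm1l–KO (6M minus 2M), DKO (6M minus 2M) and TKO minus L-Dnm1l–KO at 2M, with filled points at an adjusted P value under 0.05. Serpina1e passes in the second panel at 1.58 and 5 members pass in the third, from 1.34 to 2.28.

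Lists of other genes were read beside the serpins. All 10 hepatocyte markers had means of 68.1 or more, with albumin (Alb) at 4958, as the liver label has it. In L-Dnm1l–KO livers at 2M, DKO livers at 2M and DKO livers at 6M, 4, 4 and 7 of the 10 were called lower, with list medians of −0.93, −0.93 and −1.21, against 2.49%, 3.48% and 8.62% of all genes tested, and 0 were called in the other comparisons. Apoa1, the main protein of high-density lipoprotein, was at −1.11 ± 0.27, −1.59 ± 0.27 and −1.04 ± 0.27, while Cps1, the first enzyme of the urea cycle, was at −0.61 ± 0.41, 0.51 ± 0.40 and −1.54 ± 0.40 and was called in the last of these. In bulk liver RNA fewer hepatocytes and less of a transcript per hepatocyte cannot be told apart.

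Of 16 acute phase genes, the class of plasma proteins that includes Serpina3n, 13 were called lower in DKO livers at 6M with a median of −2.47 (8.62% of all genes tested), 2 (Saa2 and Apcs) in L-Dnm1l–KO livers at 6M (2.12% of genes in either direction) and 1 (Fgg) in L-Dnm1l–KO livers at 2M (2.49%). Apcs, serum amyloid P, was called higher in DKO livers at 2M (2.27 ± 0.60). Saa2, serum amyloid A2, was at −4.79 ± 1.27 in DKO livers at 6M. Of 12 collagen genes, the clients of Serpinh1, 0 were called in any comparison, and Col18a1, at 131, was the only one with a mean of at least 10. At most 4 of the 12 had an adjusted P value in any 1 comparison. Most could therefore not be called, and the lack of calls does not show that collagens were unchanged.

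Most markers of the other liver cells were low. The summed means were 137 for 10 macrophage markers, of which Csf1r, the receptor of a macrophage growth factor, held 121, 19.3 for 8 stellate cell markers, 13.4 for 6 endothelial markers, 3.15 for 5 cholangiocyte markers, 2.43 for the 4 proliferation markers found, 1.23 for the 3 B cell markers found, 0.345 for the 4 T cell markers found and 0.125 for the only neutrophil marker found. In each of these lists 0 genes were called in any comparison, and most of these genes had no adjusted P value and could not be called. In any 1 comparison at most 2 macrophage, 3 stellate and 2 endothelial markers had one, and none of the cholangiocyte, proliferation, lymphocyte and neutrophil markers did. Csf1r was at 0.81 ± 0.19 in DKO livers at 6M (adjusted P = 0.00168, short of the fold threshold) and between 0.01 and 0.38 in the other comparisons without passing. The other 9 macrophage markers, with means under 4, were all below 0 in DKO livers at 6M, and C1qb, a complement C1q chain, was at −3.96 ± 1.42 there and at 4.54 ± 1.41 in L-Dnm1l–KO livers at 2M (unadjusted P = 0.00526 and 0.00123). Lum, a matrix proteoglycan of the stellate list with a mean of 1.07, was at 3.27 ± 1.49 in L-Dnm1l–KO and 4.18 ± 1.43 in DKO livers at 2M (unadjusted P = 0.028 and 0.00343). The rest of the stellate list lay between −1.27 and 0.02 in L-Dnm1l–KO and between −1.64 and 2.41 in DKO livers at 2M. The part of these cell markers in the serpin values was not tested.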

How the data were processed

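RNA was sequenced from liver, 4 libraries for each of 8 groups of genotype and age. Per the labels and the study's methods, the authors made poly(A)-selected, strand-specific libraries, mapped reads with HISAT2 2.1.0.13 to GRCm38, counted them with HTSeq and fitted DESeq2. What was analysed is the authors' deposited results table, whose comparison columns are printed here as the authors' values. As signal, the authors deposited mean normalized counts over all libraries. On the log2 scale, the authors deposited fold changes with standard errors. Each p-value and adjusted p-value deposited by the authors is from DESeq2's Wald test, and an adjusted value missing after its filter on low counts was left as no call.

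From these, 7 differences between effects were tested with Benjamini-Hochberg adjustment, and the script was tested on simulated data. Positions and opposite strands came from GENCODE M21 on GRCm38, promoters from RefSeq, and coding sequences were aligned with MAFFT 7.526. Calculations used Python 3.11.15, numpy 2.4.6, pandas 2.3.3, scipy 1.17.1 and matplotlib 3.10.9.

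Alternatives were a fold threshold of 1.5 or none, adjustment over other gene sets, an unadjusted p-value and 3 ways of centring, 1 of them added after the values were seen. Named are members with an adjusted p-value under 0.05 in at least 1 comparison, members with a mean of at least 100, and Serping1, Serpinc1, Serpinh1 and Serpina3n, and others are given as ranges or in passing. A further item of this rule is not reported here. The members and lists were chosen with earlier results of these data known. Depth per library is unknown, and values per library were not analysed here.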

Additional observations from a re-analysis of the deposited data

Results flagged for a closer look

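The DKO effect on Serpina1e differed between ages by 1.58 (SE 0.56, Wald test of the difference, adjusted P = 0.0461 over genes whose mean reached 10), with −2.29 at 2M and −0.71 at 6M. The adjusted P value was 0.106 over genes whose mean reached 1, 0.187 over all genes and 0.00912 with opposite-strand classes centred separately. The other Serpina1 copies had differences from −0.40 to 0.40 in the same comparison. Reads that the copies share may have been dropped or split between them, and the part of this was not tested. Single libraries that stand apart could not be looked for, since no values per library were used.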

How the results depend on the processing

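No paired analysis was possible because the table holds comparisons and no values per library, and leaving out single replicates was not run for the same reason. No called value changed direction. Among values that were not called, 2 changed sign with opposite-strand classes centred separately and 7 with the added centring, among them Serpind1 in L-Dnm1l–KO at 2M (−0.37 to 0.09) and Serpina1e in DKO at 6M (−0.71 to 0.14), and Serpina3k (0.10 to −0.03), Serpina1d (0.11 to −0.01) and Serpinf1 (0.07 to −0.05) in TKO at 2M. For L-Dnm1l–KO at 2M the 10 called members became 6 with opposite-strand classes centred separately, and 6 with coding genes that have no opposite-strand gene centred on their own median, which was chosen after seeing the data, and the median of −1.20 became −0.75 over all members. For DKO at 6M the 15 called members became 5 with a log2 fold change threshold of 1.5, 5 with classes centred separately and 5 with the added centring. At an unadjusted P value under 0.05, 1, 2 and 1 members passed in place of 0 for TKO at 2M, L-Dnm1l–KO at 6M and TKO at 6M. The DKO age difference gave 2 members in place of 1 over genes whose mean reached 1. For TKO minus L-Dnm1l–KO at 2M, 5 members became 2 over genes whose mean reached 1, 2 over all genes and 0 with classes centred separately. For DKO minus L-Dnm1l–KO at 6M, 0 became 1 (Serpinc1) with classes centred separately. For single members, the setting that ended most calls was centring by class, with 17 calls lost, then the added centring with 16, a threshold of 1.5 with 15 and adjustment over all genes with 8. Shares of all genes called were not computed for these alternative settings. Low means limit the 14 members under 1. The causes of these changes were not tested.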
